A study of Homo sapiens with 12 samples.

Results

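The genes described here set the pace of entry into the cell cycle: 6 inhibitors of cyclin-dependent kinases (CDKN1A, CDKN1B, CDKN1C, CDKN2B, CDKN2C and CDKN2D), the D-type cyclins CCND1, CCND2 and CCND3, and the transcription factor MYC. They were taken by name, with every probe set that the array annotation gives to each of them. This found 20 probe sets for 9 of the 10 genes, of 54613 probe sets and 19775 genes in all; CDKN2C had no probe set named for it in the annotation and is not analysed here. The cells were SK-OV-3, an established human ovarian cancer line, and there were 12 culture dishes, each measured on its own expression array. In 3 dishes the medium held PBS, the saline control, in 3 it held recombinant BMP2 at 100 ng/ml, in 3 it held DM at 5 µM, and in 3 it held BMP2 and DM together at the same doses, all for 24 h. For DM, a compound, no name beyond the letters is given. All groups were the same line with no genetic change named, and the labels call the dishes biological replicates, so p-values measure the spread between dishes of a single line.

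D-type cyclins bind CDK4 and CDK6 and start the phosphorylation of RB, which frees E2F factors to switch on the genes of S phase. The INK4 proteins, encoded by CDKN2B, CDKN2C and CDKN2D, bind CDK4 and CDK6 alone, whereas the Cip/Kip proteins p21 (CDKN1A), p27 (CDKN1B) and p57 (CDKN1C) act on a wider set of cyclin-CDK complexes. TGF-beta, of the ligand family to which BMP2 belongs, is known in epithelial cells to raise CDKN1A and CDKN2B and to lower MYC. The same need not hold for BMP2.

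Values are MAS5 signals as the authors deposited them, a linear brightness per probe set. The 12 arrays had nearly equal 2% trimmed means, 495.8 to 496.1. The median signal per array was 86.7 to 112. BMP2 replicate 1 had the highest median and the lowest mean correlation to its own group, 0.934. The other BMP2 arrays came next at 0.938 and 0.941, and the arrays of the other groups had 0.949 to 0.956. The BMP2 group was thus the least uniform, and it is the reference in BMP2+DM against BMP2 and in DM against BMP2. The 5 epithelial markers all lay above the filter signal of 69.8, KRT8 at 6705 and PAX8 at 5274 among them (geometric means over 12 arrays). Of the markers of other cell types with a probe set, 1 of 5 endothelial, 1 of 4 leukocyte and 2 of 6 fibroblast genes did so. These were PECAM1 at 260.2, CSF1R at 98.5, COL1A1 at 328 and DCN at 162, while CDH5, PTPRC and PDGFRB were below it at 24.6, 47.2 and 11.8. The treatment itself was visible in the BMP target genes ID1 to ID4, SMAD6 and SMAD7, by the calls defined below. Against PBS, 5 of 6 rose with BMP2 (0.631% of all genes called) and 5 of 6 fell with DM (3.57%). In BMP2+DM against BMP2 6 of 6 fell (7.25%), and in BMP2+DM against DM 3 of 6 rose (0.0473%).

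CCND1 was 1.77-fold higher with BMP2 and DM together than with BMP2 alone, and MYC was 1.56-fold higher in the same comparison. Neither was called there without BMP2 replicate 3, and a second CCND1 probe set was not called there (limma adjusted p = 0.0905). No CDK inhibitor was called in any of the 7 comparisons, nor were CCND2 and CCND3. Calls are at a Benjamini-Hochberg adjusted p under 0.05 in a limma fit to all 12 arrays and 12674 genes, each gene standing by its brightest probe set, and changes are log2 fold changes ± their standard error. A gene entered that fit when its mean signal over the 12 arrays was above 69.8, which 8 of the 9 genes were; CDKN2B was not.

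In the comparison that asks what the ligand does alone, BMP2 against PBS, limma called 0 of the 8 genes, against 0.631% of all genes tested, and 1 of the 8 (MYC) had an unadjusted p under 0.05, against 10.5% of all genes. In DM against PBS it called 0 of 8 against 3.57% of all genes, and 1 of 8 (CCND1) had an unadjusted p under 0.05, against 16.2%. In BMP2+DM against BMP2, which asks what DM does in the presence of the ligand, 2 of 8 rose and none fell, against 7.25% of all genes called and 4.08% called higher. In BMP2+DM against DM, 0 of 8 were called by limma, against 0.0473% of all genes, and 0 had an unadjusted p under 0.05. In BMP2+DM against PBS 1 of 8 rose (CCND1), against 4.09% of all genes called and 2.41% called higher. In DM against BMP2 1 of 8 rose (MYC), against 6.57% called and 3.27% called higher. For the interaction, the difference between the BMP2 effects in the presence and in the absence of DM, 0 of 8 were called against 0.118% of all genes, and 0 had an unadjusted p under 0.05. Over the 8 genes the median change was -0.09 in BMP2 against PBS and 0.17 in BMP2+DM against BMP2, beside 0.03 in both for all genes tested. It was -0.08 in DM against PBS and -0.04 in DM against BMP2, beside 0.02 and -0.001. In BMP2+DM against DM it was 0.19, in BMP2+DM against PBS 0.01 and for the interaction 0.29, beside 0.04, 0.05 and 0.01. These medians pool the inhibitors with the cyclins and MYC, so they give no direction for either kind of gene.

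Whether all 3 arrays of a group lay beyond all 3 of another gives a plainer view of the same genes. This was so for 0 of 8 in BMP2 against PBS (15.0% of all genes), 3 of 8 in DM against PBS (21.8%), 2 of 8 in BMP2+DM against BMP2 (25.8%), 0 of 8 in BMP2+DM against DM (15.2%), 3 of 8 in BMP2+DM against PBS (25.8%) and 2 of 8 in DM against BMP2 (23.5%). In a fit to the 27306 probe sets above the filter the shares called were, in the same order of comparisons, 0.363%, 2.09%, 4.53%, 0.0476%, 3.51% and 4.07%, and 0.0220% for the interaction.

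**Figure D1:**
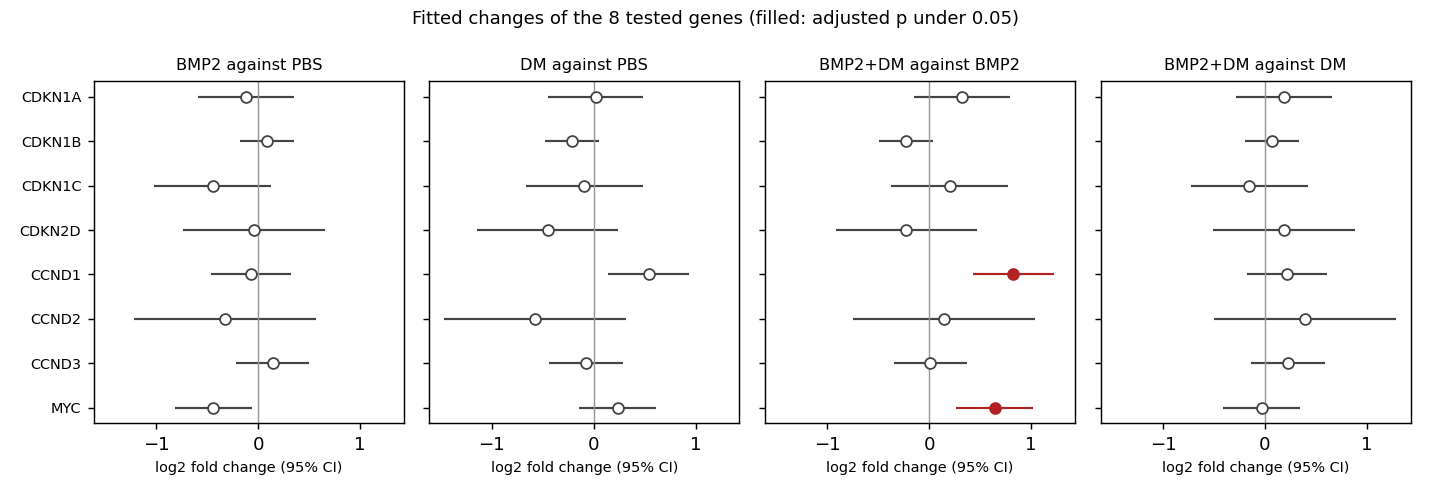
Fitted log2 fold change of each of the 8 tested genes (vertical axis) with its 95% confidence interval, in 4 comparisons with 3 arrays a group; filled red points had an adjusted p under 0.05. CCND1 and MYC in BMP2+DM against BMP2 are the 2 filled points, and most other intervals include 0.

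CCND1 encodes cyclin D1, the D-type cyclin most often overexpressed in epithelial cancers. Its brighter probe set, 208712_at, had signals of 2294, 2773 and 2406 with PBS and 2454, 3142 and 1722 with BMP2. With DM it had 3285, 2958 and 4827, and with BMP2 and DM 3834, 4149.7 and 4641. The 3 arrays with both reagents lay above all 6 arrays without DM, and the DM arrays lay above the PBS arrays but overlapped those with BMP2. The group means were 2439 ± 709.9 with BMP2, 2491 ± 251 with PBS, 3689.8 ± 998 with DM and 4208 ± 407 with both (SD, n = 3). In that order PBS did not separate from BMP2, nor both reagents from DM alone.

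CCND1 rose by 0.83 ± 0.19 in BMP2+DM against BMP2 (limma adjusted p = 0.0116) and by 0.76 ± 0.19, or 1.69-fold, in BMP2+DM against PBS (adjusted p = 0.0285). In DM against PBS it had 0.54 ± 0.19 with an adjusted p of 0.14 by limma, which is not a call, although all 3 DM arrays were above all 3 PBS arrays. BMP2 alone left it at -0.07 ± 0.19, with a 95% interval from -0.46 to 0.33, and the interaction had 0.29 ± 0.27 (adjusted p = 0.794). In bulk RNA a change in the share of cells that express a gene and a change in RNA per cell cannot be told apart. The summed signal of the 5 epithelial markers was also higher with DM, at 40401 to 46092 with DM and 42051 to 46096 with both, against 34723 to 40080.1 with PBS and 34912 to 39567 with BMP2, and its part in the CCND1 and MYC results was not tested. Without BMP2 replicate 3, the array with the lowest CCND1 signal, the change in BMP2+DM against BMP2 was 0.60 and not called (adjusted p = 0.0616), and without BMP2+DM replicate 3 it was 0.75 (adjusted p = 0.0565). The rise against PBS was not called without PBS replicate 1 or 3 or BMP2+DM replicate 2 or 3, with values from 0.68 to 0.76.

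The second probe set of CCND1, 208711_s_at, gave a different picture of BMP2. It had 2690, 1862 and 1978 with PBS, 869.9, 1273 and 1556 with BMP2, 2715, 2285 and 3882 with DM, and 2516, 1922 and 1576 with both. Here the BMP2 arrays were below every other array, and the arrays with both reagents overlapped those with PBS and with DM. In the probe set fit DM against BMP2 was 1.27 ± 0.23, or 2.41-fold, and was called (limma adjusted p = 0.00339). BMP2 against PBS was -0.84 ± 0.23 (adjusted p = 0.172) and BMP2+DM against BMP2 0.71 ± 0.23 (adjusted p = 0.0905), neither called, and BMP2+DM against PBS was -0.13 ± 0.23. For the brighter probe set DM against BMP2 was 0.61 ± 0.19, not called in the gene fit (adjusted p = 0.0626). Both probe sets had positive values in BMP2+DM against BMP2 (0.83 and 0.71), while those for BMP2 alone (-0.07 and -0.84) and for both reagents against PBS (0.76 and -0.13) disagreed. With both probe sets averaged, BMP2+DM against PBS was 0.32 and not called (adjusted p = 0.388).

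MYC encodes a basic helix-loop-helix factor that drives genes of cell growth, and it was measured by a single probe set, 202431_s_at. Its signals were 2187, 2351 and 2563 with PBS, 1960.5, 2310.2 and 1170.2 with BMP2, 2627, 3113 and 2632 with DM, and 2975, 2765 and 2442 with both. The arrays with DM, alone or with BMP2, were all above the BMP2 arrays, and the DM arrays were above the PBS arrays. Group means ran from 1814 ± 584 with BMP2 through 2367 ± 188 with PBS and 2727 ± 268 with both to 2791 ± 279 with DM (SD, n = 3). Of the neighbours in this order, BMP2 and PBS, PBS and both reagents, and both reagents and DM each had overlapping arrays.

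MYC rose by 0.64 ± 0.18 in BMP2+DM against BMP2 (limma adjusted p = 0.0371) and by 0.67 ± 0.18, or 1.60-fold, in DM against BMP2 (adjusted p = 0.0309). BMP2 against PBS was -0.44 ± 0.18 with an unadjusted p of 0.0256 and an adjusted p of 0.38, DM against PBS was 0.24 ± 0.18 (adjusted p = 0.584), and BMP2+DM against DM was -0.03 ± 0.18. The interaction was 0.40 ± 0.25 (adjusted p = 0.675). BMP2 replicate 3 had the lowest MYC signal of the 12 arrays, as it had for the brighter CCND1 probe set. Without it the change was 0.35 in BMP2+DM against BMP2 (adjusted p = 0.141) and 0.39 in DM against BMP2 (adjusted p = 0.106), and neither was called. The first call was also lost without any 1 of the BMP2+DM arrays (0.58 to 0.72), and the second without any 1 of the DM arrays (0.59 to 0.72). Both calls were lost with probe sets averaged, without a variance trend and with only the groups compared in the fit, and the first also with every probe set tested.

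**Figure D2:**
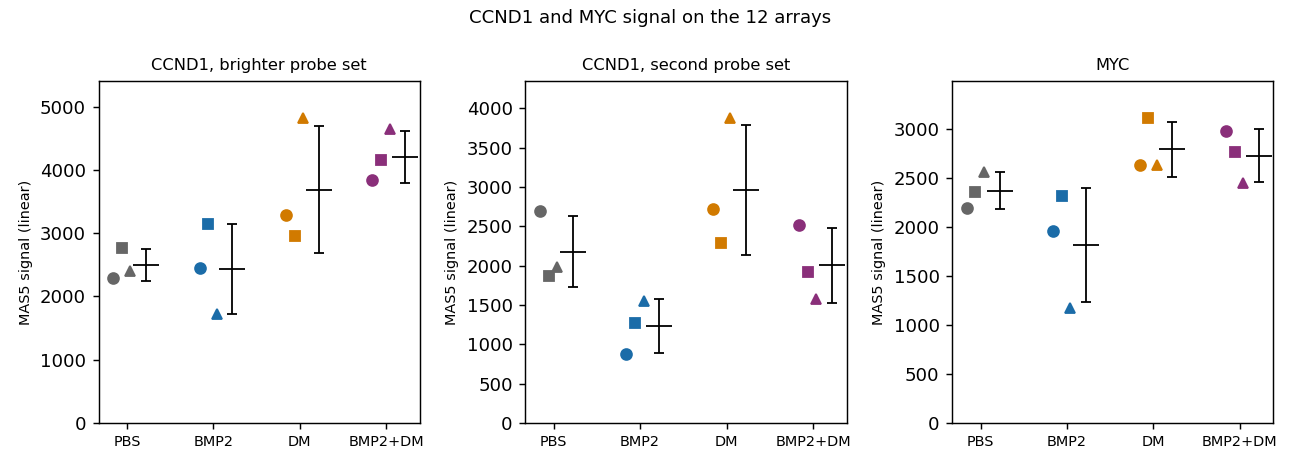
MAS5 signal (linear, from 0) of both CCND1 probe sets and of MYC on the 12 arrays by group; circles, squares and triangles are replicates 1, 2 and 3, and bars give the mean ± SD (n = 3). The brighter CCND1 probe set is highest with both reagents, at 3834 to 4641, the second is lowest with BMP2, at 869.9 to 1556, and MYC has its lowest array, 1170.2, with BMP2.

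Of the Cip/Kip genes, CDKN1A encodes p21, the inhibitor that p53 and SMAD proteins are both known to induce. Its signals (202284_s_at) were 661, 673 and 664 with PBS, 392, 741 and 795 with BMP2, 616, 804 and 619 with DM, and 734, 865 and 708 with both. BMP2 replicate 1, the array with the highest median, stood below the other arrays, and the groups overlapped except that both reagents were above PBS. BMP2 against PBS was -0.12 ± 0.22, with a 95% interval from -0.59 to 0.35, and 0.20 without BMP2 replicate 1. DM against PBS was 0.02 ± 0.22, with an interval from -0.45 to 0.49. BMP2+DM against PBS was 0.20 ± 0.22 and BMP2+DM against BMP2 0.32 ± 0.22 (limma adjusted p = 0.701 and 0.44).

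CDKN1B encodes p27, which is set mostly by translation and protein turnover. It had 2385, 2155 and 2186 with PBS, 2181, 2199.9 and 2809.9 with BMP2, 2111, 2051 and 1668 with DM, and 2031, 1879 and 2190.4 with both (209112_at). All DM arrays were below the PBS and BMP2 arrays, while those with both reagents overlapped each group. None of these differences was called: DM against PBS was -0.21 ± 0.12 (adjusted p = 0.444), DM against BMP2 -0.30 ± 0.12 (unadjusted p = 0.0276, adjusted p = 0.18) and BMP2 against PBS 0.09 ± 0.12, with an interval from -0.18 to 0.35. CDKN1B had the smallest standard error of the 8 genes.

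The promoters of these 2 genes are shown because they are the Cip/Kip genes with a promoter window. The GC boxes of CDKN1A are also known as sites where SP1 and SMAD proteins act together. RefSeq (GRCh38.p14) gave promoter windows for 6 of the 10 genes, with none for CCND1, CCND2, CDKN1C or MYC. Each line below holds the 250 bases before an annotated start, on the plus strand, at chr6:36678464-36678713 for CDKN1A and chr12:12717118-12717367 for CDKN1B. Capitals mark GGGCGG, the GC box, on either strand.
CDKN1A: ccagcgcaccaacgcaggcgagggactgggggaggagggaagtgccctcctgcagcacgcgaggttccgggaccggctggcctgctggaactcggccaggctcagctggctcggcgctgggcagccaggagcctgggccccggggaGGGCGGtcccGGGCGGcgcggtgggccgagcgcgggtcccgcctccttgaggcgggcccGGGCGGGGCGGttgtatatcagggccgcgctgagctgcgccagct
CDKN1B: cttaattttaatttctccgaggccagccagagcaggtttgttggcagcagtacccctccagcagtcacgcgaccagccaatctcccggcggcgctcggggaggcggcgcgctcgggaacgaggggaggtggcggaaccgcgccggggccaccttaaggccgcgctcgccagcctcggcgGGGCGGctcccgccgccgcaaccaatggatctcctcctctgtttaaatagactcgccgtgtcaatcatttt
CDKN1A held 4 GC boxes, the last pair sharing a base, and CDKN1B held 1. Over windows of 250 bases before and 50 after the start, GGGCGG or its complement CCGCCC was in 45% of 35116 promoters and in 8 of 10 windows of these genes. Those 10 windows belong to 6 genes, with several each for CCND3 and for CDKN2C, which had no probe set. GGCGCC, a GC-rich motif bound by SMAD1 and SMAD5, was in 19.2% of all promoters and in 3 of the 10 windows, those of CDKN2C and CCND3. It was in neither of the 2 shown. The E-box CACGTG, to which MYC and MAX bind, was in 7.26% of all promoters and in 2 of the 10 windows, those of CDKN2C. The SMAD palindrome GTCTAGAC was in 0.202% and in 0 of the 10. Neither was found in the 2 windows shown. A match of letters is a description only, and its absence from a window says nothing about the factor.

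CDKN1C encodes p57, an imprinted gene, and its 5 probe sets did not move together. The brightest, 213348_at, ranged from 449 to 777 with PBS, 404 to 525 with BMP2, 405 to 716 with DM and 359 to 704 with both, with all groups overlapping. Its value in BMP2 against PBS was -0.45 ± 0.27 (limma adjusted p = 0.611), while those of the 3 other probe sets above the filter were 0.57, -0.50 and -0.05. In BMP2+DM against PBS probe set 213182_x_at had 1.26 (60.7, 211 and 100.1 with PBS; 342, 177 and 289 with both) with an adjusted p of 0.245, beside -0.25, 0.05 and 0.05 for the others. The fifth, 219533_at, had a mean of 11.8, below the filter, and was not tested. No probe set of CDKN1C was called in any comparison.

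The INK4 genes were dim. CDKN2B, which encodes p15, had signals of 3.43 to 104 on 207530_s_at and 3.69 to 61 on 236313_at. All 4 groups overlapped on both, every group mean was below the filter signal of 69.8, and no test was made; detection calls were not used, so these values are no statement of absence. CDKN2A, the neighbouring INK4 gene, was above the filter with a geometric mean of 148 (70.8 to 288). Its changes lay between -0.51 and 0.66, none called. Some markers of other cell types, though not most, also passed the filter, DCN at 162 and PECAM1 at 260.2 among them. The CDKN2A signal is therefore no statement that the gene is expressed. The same limit holds for the brightest probe sets of CDKN2D and CCND2, with geometric means of 234 and 167. CDKN2D, which encodes p19, had 246 to 293 with PBS, 189.6 to 383 with BMP2, 143 to 267 with DM and 199.7 to 241 with both (210240_s_at). The arrays with both reagents were below all PBS arrays, at -0.26 ± 0.33 (adjusted p = 0.741). DM against PBS was -0.45 ± 0.33 (adjusted p = 0.566), with an interval from -1.15 to 0.24. Its other probe set, 213586_at, ran from 4.88 to 112 and was below the filter.

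**Figure D3:**
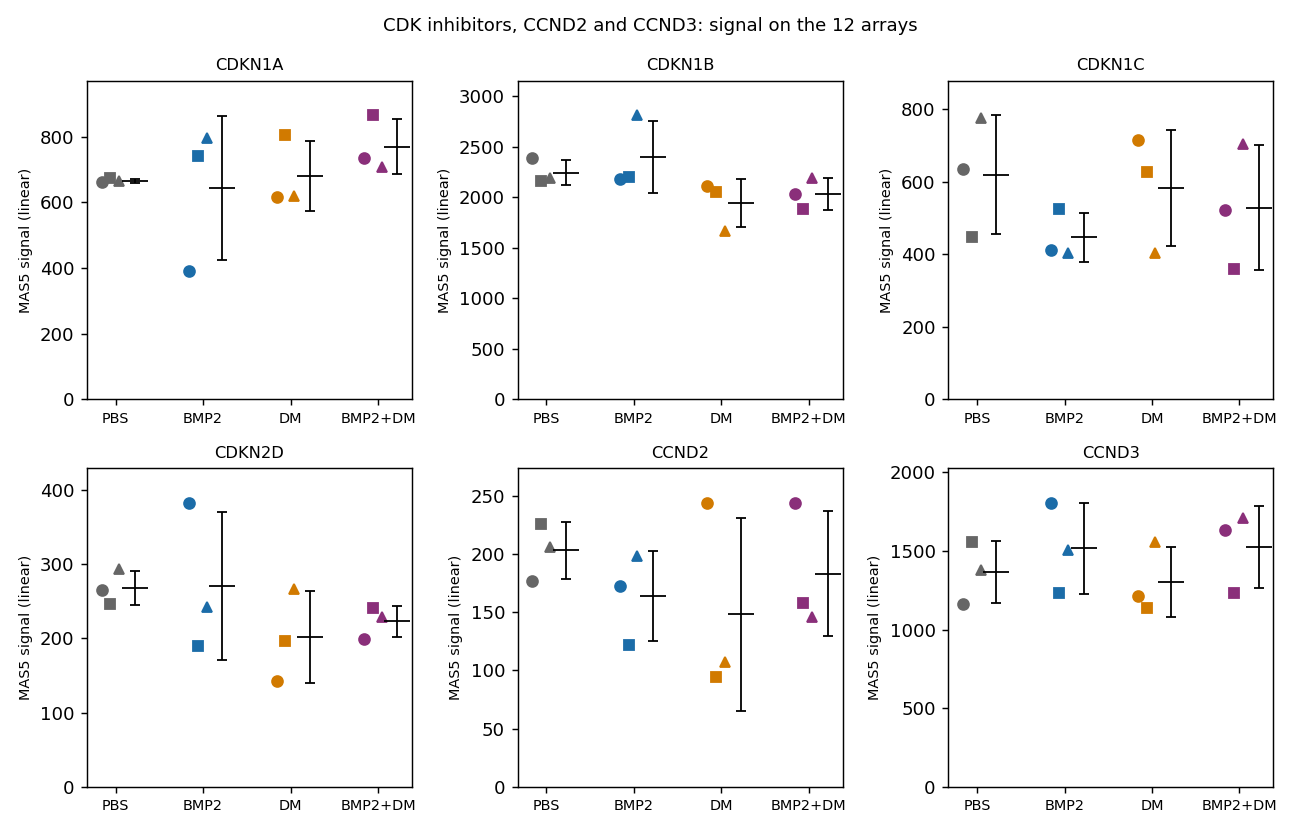
MAS5 signal (linear, from 0) of the brightest probe set of CDKN1A, CDKN1B, CDKN1C, CDKN2D, CCND2 and CCND3 on the 12 arrays; circles, squares and triangles are replicates 1, 2 and 3, and bars give the mean ± SD (n = 3). CDKN1A has 1 low array with BMP2, at 392, against 616 to 865 on the other 11, and CDKN1B with DM, at 1668 to 2111, lies below PBS, at 2155 to 2385.

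Neither of the other D-type cyclins was called. CCND3, cyclin D3, had 1164 to 1557 with PBS, 1234 to 1807 with BMP2, 1139 to 1555 with DM and 1229 to 1711 with both (201700_at), with all groups overlapping. Its changes were 0.14 ± 0.17, -0.07 ± 0.17 and 0.15 ± 0.17 for BMP2, DM and both reagents against PBS (adjusted p from 0.705 to 0.899 by limma), and its interval in BMP2+DM against BMP2 was -0.35 to 0.37. That interval lies below the CCND1 change of 0.83 there, but the difference between the genes was not tested. CCND2, cyclin D2, passed the filter on 1 of 4 probe sets, 231259_s_at, with 177 to 226 for PBS, 122 to 198 for BMP2, 94.3 to 244 for DM and 146 to 244 for both. It had the largest standard error of the 8 genes: -0.32 ± 0.42, -0.58 ± 0.42 and -0.18 ± 0.42 for BMP2, DM and both against PBS, with an interval of -1.47 to 0.32 for DM. In BMP2+DM against BMP2 CCND2 had 0.14 ± 0.42, and its interval, -0.75 to 1.04, holds the CCND1 change. The other CCND2 probe sets had means of 12.5, 18.1 and 42.3, below the filter, and were not tested. On 200953_s_at (mean 42.3) the arrays with DM, alone or with BMP2, all lay below the BMP2 arrays. On 200952_s_at (mean 18.1) the BMP2 arrays all lay above the PBS arrays. Neither separation was seen on 231259_s_at, and at these levels neither is read as a change. The second CCND3 probe set, 1562028_at, had a mean of 47.5, was below the filter and was not tested.

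Partners and targets of these genes are given by list, to be read beside the shares of all genes called, 0.631% in BMP2 against PBS, 3.57% in DM against PBS, 7.25% in BMP2+DM against BMP2, 4.09% in BMP2+DM against PBS and 6.57% in DM against BMP2. Of 19 genes for G1 kinases, cyclin E, RB and E2F, all 19 were tested. None was called in BMP2 against PBS or DM against PBS by limma, and 1 fell in BMP2+DM against BMP2 and in DM against BMP2: CDK6, the kinase partner of the D-type cyclins, by 0.57 ± 0.11 (adjusted p = 0.00303) and 0.45 ± 0.11 (adjusted p = 0.0159). The median of this list was -0.16 in BMP2+DM against BMP2, beside 0.03 for all genes. It was -0.17 in BMP2+DM against PBS, -0.14 in DM against BMP2 and -0.10 in DM against PBS, beside 0.05, -0.001 and 0.02. In BMP2 against PBS it was 0.06 and in BMP2+DM against DM 0.03, beside 0.03 and 0.04. With the probe sets of CDK6 averaged, neither fall was called, and the second was also not called with median centring, without a variance trend, or without BMP2 replicate 2 or DM replicate 1 (values of CDK6 in DM against BMP2 ran from -0.76 to -0.32 over the alternatives).

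Of 12 partners and antagonists of MYC, 10 were tested. MAX, its obligate partner, had -0.09 ± 0.11 with BMP2 and 0.14 ± 0.11 with DM against PBS and was not called in any comparison. MLX, a partner of the related MXD and MondoA proteins, rose by 0.47 ± 0.12 in BMP2+DM against BMP2 (adjusted p = 0.0254) and by 0.52 ± 0.12 in BMP2+DM against PBS. ZBTB17, which encodes MIZ1, a factor through which MYC represses genes, rose by 0.76 ± 0.17 in BMP2+DM against PBS (adjusted p = 0.0174). With probe sets averaged, or with each array centred on its median, neither MLX nor ZBTB17 was called. The MLX call in BMP2+DM against BMP2 was also lost with only the groups compared in the fit and without BMP2 replicate 3 or BMP2+DM replicate 1 or 2, that against PBS without PBS replicate 1 or 3 or BMP2+DM replicate 1 or 2, and the ZBTB17 call without PBS replicate 3 or BMP2+DM replicate 2 or 3.

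Of 17 growth genes known to be bound by MYC, 13 were tested, and ODC1, the first enzyme of polyamine synthesis, was called most often. It rose by 0.55 ± 0.13 in DM against PBS (adjusted p = 0.0298), 0.65 ± 0.13 in BMP2+DM against BMP2 (adjusted p = 0.00615), 0.56 ± 0.13 in BMP2+DM against PBS and 0.64 ± 0.13 in DM against BMP2. RRS1 and RRP9, factors of ribosome assembly, rose by 0.87 ± 0.17 in DM against BMP2 and by 0.95 ± 0.24 in BMP2+DM against PBS. NPM1, a nucleolar chaperone, fell by 0.42 ± 0.11 in BMP2+DM against BMP2. In that comparison 1 of 13 rose and 1 fell, with a list median of 0.24 beside 0.03 for all genes. In BMP2 against PBS none was called by limma and the median was -0.06. The list median was 0.06 in DM against PBS, 0.16 in BMP2+DM against PBS and 0.13 in DM against BMP2, beside 0.02, 0.05 and -0.001. ODC1 was not called in DM against PBS without any 1 of the DM arrays, or without PBS replicate 2 or 3, and ran from 0.48 to 0.61 over all alternatives. Its call in BMP2+DM against PBS was lost without PBS replicate 2 or 3 or BMP2+DM replicate 2 or 3. Both of these ODC1 calls were also lost with median centring, with probe sets averaged and without a variance trend, and its calls in the comparisons with BMP2 alone, like that of RRS1, without a variance trend. NPM1 was not called with quantile normalization, median centring or no variance trend, or without BMP2 replicate 1 or 2 or BMP2+DM replicate 1 or 2. RRP9 was not called with median centring, no filter or no variance trend, or without PBS replicate 1 or 2 or BMP2+DM replicate 1 or 3.

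Of 17 targets of p53 beside CDKN1A, 13 were tested and none was called in BMP2 against PBS, DM against PBS or BMP2+DM against PBS. MDM2, the p53 ligase that p53 induces, had -0.08 ± 0.15 with BMP2 and -0.09 ± 0.15 with DM. The death receptor gene FAS rose by 0.68 ± 0.17 and PLK2, a stress-induced kinase, fell by 0.40 ± 0.10 in BMP2+DM against BMP2 (adjusted p = 0.0192 and 0.0158), so that 1 of 13 rose and 1 fell. In DM against BMP2 the same pair was called, FAS at 0.92 (adjusted p = 0.00253) and PLK2 at -0.49 (adjusted p = 0.00408). In BMP2+DM against BMP2 the FAS call was lost without a variance trend, with only the groups compared in the fit, and without BMP2 replicate 1 or BMP2+DM replicate 1 or 2. The PLK2 call there was lost with median centring, without a variance trend, and without BMP2 replicate 2 or BMP2+DM replicate 2, and that in DM against BMP2 with median centring.

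**Figure D4:**
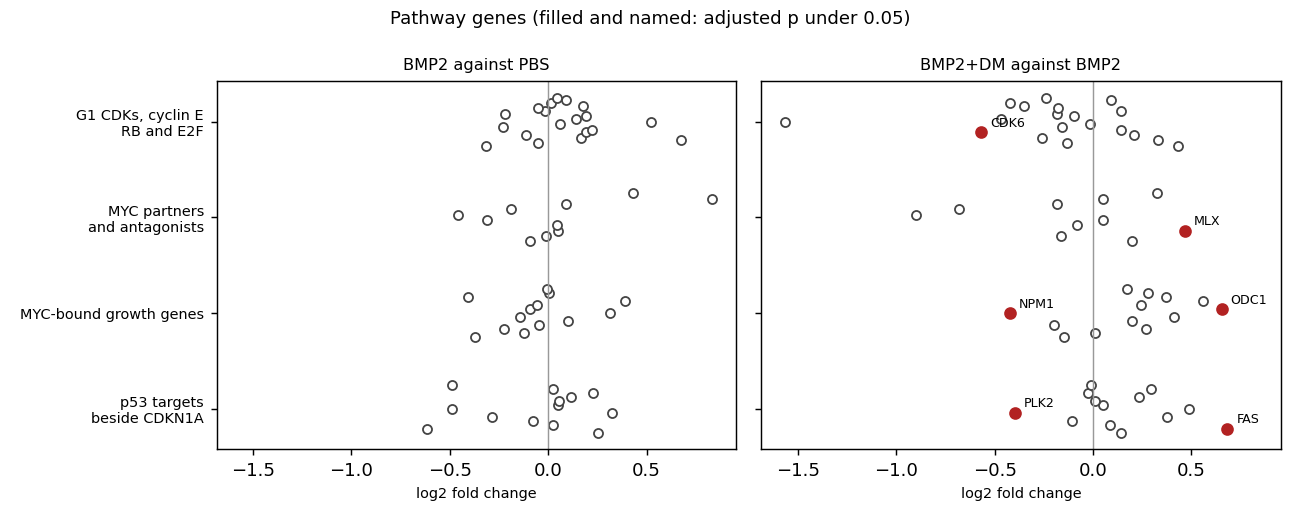
Fitted log2 fold change of the tested genes of 4 lists (1 point per gene, 3 arrays a group) in BMP2 against PBS and in BMP2+DM against BMP2; filled red points are named and had an adjusted p under 0.05. No point is filled in BMP2 against PBS, and CDK6, MLX, NPM1, ODC1, PLK2 and FAS are filled in BMP2+DM against BMP2.

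The genes most like CCND1, MYC and CCND2 over the 12 arrays were found by Pearson correlation of log2 signal with each of the other tested genes, for the 3 genes with the widest range of group means (0.83, 0.67 and 0.58). For CCND1 these were MAK16 (r = 0.965), MMAB (0.947) and MSX1 (0.93); for MYC they were WNT7A (0.956), AIFM2 (0.93) and RAB3A (0.928). CCND2 gave CASZ1 (0.927), PPIL6 (0.851) and DSTNP2 (0.846). The highest correlations among 12674 tested genes over 12 arrays in 4 groups are large by their selection, and these are descriptions only.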

How the data were processed

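RNA from 12 SK-OV-3 cultures was measured on 12 arrays. The deposited intensities are MAS5 signals, per the submitters' processing notes; the version is not given in the sources used here. In the platform annotation 41091 probe sets had 1 gene symbol, 1801 several and 11721 none listed. Signals below 1 were raised to 1 (396 values) and taken to log2, with no further normalization. The brightest probe set stood for a gene and was kept above the median of all probe sets. limma 3.58.1 in R 4.3.3 fitted 4 group means, with variances moderated along a trend in brightness (8 residual and 9.24 prior degrees of freedom); tests were two-sided. An exact test of 3 arrays against 3 could reach no p below 0.1. The number of arrays limits the precision.

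All 10 genes are named, with called genes of each list (at most 4 in a comparison), CDKN2A, MDM2, MAX and 3 genes of like pattern for each of 3 members. The genes and lists were chosen with earlier results of these data known. Deviations of same-numbered arrays from their group means correlated at -0.026 to 0.059, while 8 of 12 arrays correlated best with an array of their own number. Whether the numbers pair the arrays was not tested. The main fit did not pair them, and the replicate block is given as an alternative. The fit was tested on simulated data for BMP2+DM against BMP2, in 20 runs with 200 changed genes each. It recovered 29.6% of 1.5-fold, 54% of 2-fold and 82.2% of 4-fold changes, and 4.34% of calls were false. A gene that was not called may therefore still have changed. Alternatives were other scalings, filters, probe set summaries and variance models, a replicate block, and omission of each array.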

Additional observations from a re-analysis of the deposited data

How the results depend on the processing

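No CDK inhibitor, CCND2 or CCND3 was called in any of the 7 comparisons under any alternative run (2 other scalings, an offset of 32 before log2, filters at none and at the brightest 30%, probe sets averaged or each tested, 2 other variance models, only the groups compared, a replicate block, each array omitted), so far as it could test them, and no called value changed sign. The count stayed 0 throughout for BMP2 and for DM against PBS, for BMP2+DM against DM and for the interaction. The 2 genes called in BMP2+DM against BMP2 became 1 with the mean of probe sets, every probe set and only the groups compared, 0 without a variance trend, and 0 to 2 with an array omitted. The 1 gene called in BMP2+DM against PBS became 0 with the mean of probe sets and without a variance trend, and 0 to 1 with an array omitted. In DM against BMP2 the count of 1 became 2 with median centring, the brightest 30% and every probe set, 0 without a variance trend and with only the groups compared, and 0 to 2 with an array omitted. With the mean of probe sets the count stayed 1 there, but CCND1 was called in place of MYC. The cause was not tested. With the replicate block the counts were 2, 1 and 1, as in the fit without it, and 8 of 12 arrays correlated best with an array of their own number. Median centring raised the median of all genes in DM against BMP2 from 0.00 to 0.13, with 78.1% of calls higher instead of 49.8%; MYC had 0.80 there. Over all genes the share of calls that were higher also moved, for BMP2 against PBS from 51.2% to 34%, for DM against PBS from 52.1% to 64.5% and for BMP2+DM against BMP2 from 56.3% to 72.9%.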
